A study of Mus musculus with 2 samples.

Results

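The 6 genes described here carry the signal by which mesenchyme calls out branches of the ureteric bud. They were Gdnf, the ligand, Ret and Gfra1, its receptors, Etv4 and Etv5, transcription factors that act below Ret, and Spry1, an inhibitor of the pathway. They are 6 of the 55450 genes of the annotation (GENCODE M21, mm10) and were chosen by name. Peaks were assigned to a gene when they overlapped its body or the 2 kb upstream of its start. This gave 49 of the 159560 peaks of the Enl-WT library and 45 of the 130027 peaks of the Enl-T1 library. Joined where they overlapped, these peaks formed 56 regions, of which 38 held a peak of both libraries (shared regions), 11 a peak of Enl-WT alone and 7 a peak of Enl-T1 alone.

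Single-nucleus ATAC-seq (snATAC-seq), which reads where a transposase can cut open chromatin in each nucleus, was performed on kidneys of B6 mouse embryos at embryonic day 15.5 (E15.5). Enl-WT kidneys were Enl+/+ Wt1GFPCre/+, and Enl-T1 kidneys were Enl flox-T1/+ Wt1GFPCre/+. Enl (Mllt1) encodes a reader of acylated histones, and T1 is a heterozygous knock-in of a small in-frame insertion found in Wilms tumour, an embryonal kidney cancer. Each group was 1 library, and how many embryos it drew on is not given in the sources used. Both groups carried the Wt1GFPCre allele, which inactivates 1 copy of Wt1 and expresses Cre from the Wt1 promoter. This Cre acts in the nephron and stromal lineages, so the ureteric epithelium lies outside the lineages in which the mutant allele is switched on. The insertion itself cannot be read from counts in peaks.

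In the developing kidney, nephron progenitors of the cap mesenchyme and neighbouring stroma secrete GDNF. GDNF binds GFRA1 on the tip of the ureteric bud, and the complex activates the RET tyrosine kinase. RET signalling through ERK and PI3K maintains Etv4 and Etv5, which keep tip cells dividing and moving, and induces Spry1, which restrains the same pathway. Mice that lack Gdnf, Ret or Gfra1 usually form no kidney. Gfra1 is also expressed in mesenchyme, where Ret is not.

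In Enl-WT 9628 barcodes with 138176616 counts were deposited, and 9472 of them with 2000 to 100000 counts (median 14789.5) were kept. In Enl-T1 there were 13376 barcodes with 110265593 counts, 12635 were kept (median 8753), and 149 kept barcodes occurred in both libraries. Nuclei were clustered without any region within 100 kb of the 6 genes, and clusters were named from marker genes. Enl-WT had 1937 nephron progenitor-like nuclei (20.4% of those kept) and Enl-T1 4274 (33.8%), with stroma-like nuclei 3245 (34.3%) and 5466 (43.3%), and ureteric epithelium-like nuclei 882 (9.31%) and 1723 (13.6%). The nephron progenitor-like class was made of different clusters in each library. Cluster 2 gave 1904 of the Enl-WT nuclei and 90 of the Enl-T1 nuclei, whereas cluster 0 gave 23 and 2869 and cluster 6 gave 10 and 1315.

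Levels are given in CPM, the counts scaled to a total of 1000000 over the shared regions in a class, and a difference between libraries as the log2 ratio of Enl-T1 to Enl-WT with its 95% interval. With 1 library per group no test between genotypes was possible, no p-value is given, and every interval covers counting error only. Peaks were called in each library, so a gene's ratio also depends on how wide its peaks were in each library. Over all shared regions the Enl-T1 peaks were narrower by a log2 of -0.15 in summed width, and for Gfra1, Etv4 and Etv5 the value was -0.26, -0.27 and -0.29. For these 3 genes, regions of matched width and values per kb of peak are therefore given beside the ratios.

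Gdnf, the ligand (ENSMUSG00000022144.4, chr15:7810846-7837575, + strand), had 3 shared regions: r1 across its start, r2 in an intron 2.28 kb downstream and r6 in an intron 14.8 kb downstream. Region r2, intronic in GENCODE, also overlaps another promoter of Gdnf in RefSeq. Regions are numbered along each gene in the direction of transcription. In Enl-WT, Gdnf was most open in nephron progenitor-like nuclei at 43.6 CPM (95% interval 40.1 to 47.2), stroma-like nuclei at 41.6 (38.8 to 44.6) and podocyte-like nuclei at 37.7 (32.1 to 43.8), and these 3 intervals overlapped. The extent of the podocyte-like class depended on the clustering resolution, and its values here and below carry that limit. Gdnf was lowest in ureteric epithelium-like nuclei at 14.0 (11.2 to 17.3) and endothelial-like nuclei at 12.4 (9.37 to 16.0), which do not make the ligand. After each nucleus was thinned to 2500 fragments, 9.75% of Enl-WT nephron progenitor-like nuclei had a fragment in Gdnf against 3.17% of endothelial-like nuclei, which is the background of this measure.

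Gdnf stood at 42.5 CPM in Enl-T1 nephron progenitor-like nuclei, which gives a log2 ratio of -0.04 (-0.19 to 0.12). In stroma-like nuclei the level was 36.4 CPM, a ratio of -0.20 (-0.34 to -0.05), and in ureteric epithelium-like nuclei it was 17.6 CPM, a ratio of 0.33 (-0.07 to 0.74). The stromal interval thus lay below 0 and the other 2 included it. The region at the start carried the stromal difference, at 23.8 CPM in Enl-WT and 18.4 CPM in Enl-T1, a ratio of -0.37 (-0.57 to -0.17). Within stromal clusters that held many nuclei of both libraries, the same region did not differ beyond counting error. It was at 23.2 and 21.9 CPM in cluster 1, at 15.2 and 13.7 CPM in cluster 3, and at 33.7 and 37.4 CPM in cluster 5. Cluster 5, where Gdnf was most open among stromal clusters (58.0 CPM in Enl-WT, 55.9 in Enl-T1), held 956 Enl-WT nuclei but 371 Enl-T1 nuclei. Cluster 10, with 3 Enl-WT and 1066 Enl-T1 nuclei, had a Gdnf level of 33.0 CPM. Cluster 11 went against the class, with Gdnf at 14.0 CPM from 18 counts in 110 Enl-WT nuclei and 31.2 CPM in 951 Enl-T1 nuclei (1.15, 0.17 to 2.32). The stroma-like classes of both libraries therefore differ in their clusters as well as in this value, and summed markers of Foxd1 stroma were also lower in Enl-T1 stroma (267 and 234 CPM, 5 of 5 lower). The part of these shifts in the Gdnf value was not tested.

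The Enl-WT peak list had 3 further Gdnf peaks that overlapped none of Enl-T1. Region r3, 4.65 kb downstream of the start, held 8.28 CPM in nephron progenitor-like, 7.50 CPM in stroma-like and 5.95 CPM in ureteric epithelium-like nuclei of Enl-WT. Since counts outside a library's own peaks are not listed, no ratio can be given there. When each library's whole list was counted, the Gdnf ratio became -0.34 in nephron progenitor-like nuclei and -0.54 in stroma-like nuclei, and a window with 10 kb on each side gave -0.41 in the former. The promoter of Gdnf is shown because region r1, the most open Gdnf region in these classes, covers it. It is the 250 bases before the first start in RefSeq (GRCm38.p6, chr15:7809798-7810047, + strand), printed 5′ to 3′ with matches to searched motifs in capitals.
Gdnf promoter 1: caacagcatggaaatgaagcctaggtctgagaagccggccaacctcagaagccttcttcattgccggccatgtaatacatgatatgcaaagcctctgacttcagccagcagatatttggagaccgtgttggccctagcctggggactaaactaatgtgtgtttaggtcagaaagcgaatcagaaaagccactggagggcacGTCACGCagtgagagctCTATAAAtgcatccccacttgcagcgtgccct
The motifs searched on both strands were CCGGAAG for ETS factors, TCANGTTTC for Six2, TTTATNG for HOX, GCGTGGG for WT1 or EGR, TGANTCA for AP-1, CATTCC for TEAD, GTTAATNAT for HNF1, GTCANGC for PAX, AGATAA for GATA factors, ATCAAAG for TCF/LEF and GCCNNNGGC for TFAP2. The capitals in the Gdnf promoter mark 1 PAX match, held by 8.79% of 32851 RefSeq promoters of this length, and 1 HOX match, held by 9.81%. The HOX letters there also spell TATAAA, the core of a TATA box. No printed sequence had overlapping matches. A match describes letters and does not show that a factor binds.

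Ret, the receptor tyrosine kinase (ENSMUSG00000030110.13, chr6:118151745-118197718, − strand), transmits the GDNF signal in the ureteric tip. It had 4 shared regions, all matched in width between the libraries. In Enl-WT it was most open in ureteric epithelium-like nuclei at 47.2 CPM (41.9 to 53.0), followed by podocyte-like nuclei at 39.7 (34.0 to 46.0), whose interval overlapped, and nephron progenitor-like nuclei at 36.2 (33.1 to 39.6). Stroma-like nuclei stood at 30.6 CPM (28.1 to 33.1) and endothelial-like nuclei at 22.2 (18.1 to 27.0). The higher level in ureteric epithelium-like nuclei lay in region r2, which holds an annotated start. This region was at 29.0 CPM in ureteric epithelium-like nuclei, 11.2 in nephron progenitor-like nuclei and 10.1 in stroma-like nuclei. Region r4, over an exon 17.9 kb downstream, was between 12.1 and 13.9 CPM in all 3 classes. The weaker regions r3 and r5 had other patterns. In nephron progenitor-like, stroma-like and ureteric epithelium-like nuclei, r3 was at 6.44, 1.71 and 5.14 CPM. In the same order r5 was at 5.26, 4.89 and 1.06 CPM.

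Ret did not differ between the libraries beyond counting error in any of the 3 classes. In ureteric epithelium-like nuclei it was at 47.2 CPM (Enl-WT) and 49.2 CPM (Enl-T1; log2 ratio 0.06, -0.17 to 0.29), and region r2 was at 29.0 and 27.4 CPM (-0.08, -0.37 to 0.22). The ratio was -0.02 (-0.19 to 0.15) in nephron progenitor-like nuclei and 0.05 (-0.12 to 0.21) in stroma-like nuclei. Among single regions, r4 alone had an interval away from 0, in nephron progenitor-like nuclei, at 13.3 CPM in Enl-WT against 10.1 in Enl-T1 (-0.40, -0.69 to -0.10). Inside the ureteric epithelium, Ret was more open in cluster 4 than in cluster 12 in Enl-WT, at 51.0 (45.1 to 57.5) and 25.2 CPM (15.9 to 37.9). In Enl-T1 the same clusters were at 52.6 and 43.1 CPM, so that cluster 12 alone differed between the libraries (0.78, 0.12 to 1.5). That ratio rested on 45 counts from 136 Enl-WT nuclei.

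Upstream of the Ret start, at -0.870 kb, the Enl-T1 list held a peak (r1) with no overlapping Enl-WT peak. Of its 382 counts, 210 were in ureteric epithelium-like nuclei, which had 13.9 CPM (11.3 to 16.8) against 1.86 (1.31 to 2.56) in nephron progenitor-like and 2.01 (1.44 to 2.74) in stroma-like nuclei of that library. With every listed peak counted, this peak included, the Ret ratio in ureteric epithelium-like nuclei was 0.52. Of the 6 genes, 4 had an entry in the RefSeq promoter table, and Ret and Etv4 are named only.

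**Figure D1:**
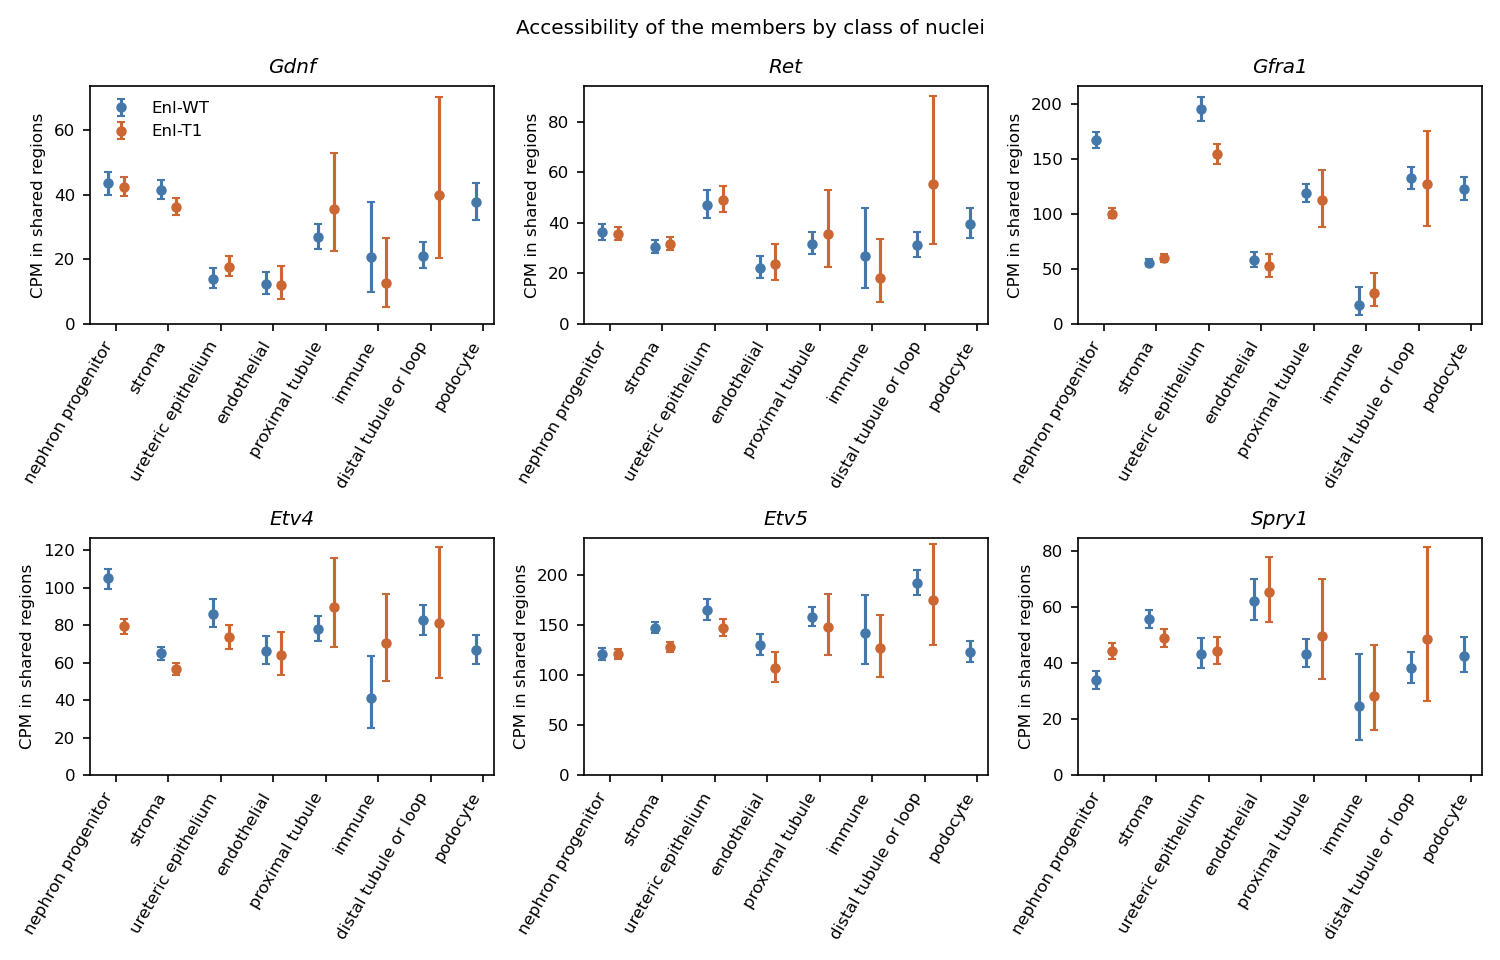
Level of each gene (CPM in shared regions, vertical axis from 0) in each class of nuclei (horizontal axis) in Enl-WT (blue) and Enl-T1 (orange), with 95% counting intervals as bars and 1 library per group. Gfra1 stands at 167 and 100 CPM in nephron progenitor-like nuclei, while the 2 libraries' intervals overlap there for Gdnf and for Ret.

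Gfra1, the co-receptor that binds GDNF (ENSMUSG00000025089.15, chr19:58235604-58455909, − strand), differed most between the libraries among the 6 genes. Its level in nephron progenitor-like nuclei was 167 CPM (160 to 174) in Enl-WT against 100 CPM (95.9 to 105) in Enl-T1, and the log2 ratio was -0.74 (-0.82 to -0.65). The share of these nuclei with a Gfra1 fragment after thinning was 33.1% (30.9 to 35.2) for Enl-WT against 22.6% (21.3 to 23.9) for Enl-T1, compared with 65.2% and 37.7% without thinning and 14.1% and 12.5% in thinned endothelial-like nuclei. In ureteric epithelium-like nuclei the level was 195 CPM (184 to 206) and 154 CPM (145 to 163), a ratio of -0.34 (-0.46 to -0.22). In stroma-like nuclei it was 55.6 CPM (52.3 to 59.0) and 59.5 CPM (56.2 to 63.0), a ratio of 0.10 (-0.02 to 0.22), which became 0.30 over every listed peak and 0.36 per kb of peak. The nephron progenitor-like value stayed low over regions of matched width (-0.86) and per kb of peak (-0.47). The ureteric value did not, at -0.12 over matched regions and -0.08 per kb.

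In Enl-WT the gene was most open in ureteric epithelium-like and nephron progenitor-like nuclei, and distal tubule-like (132 CPM), podocyte-like (122) and proximal tubule-like nuclei (119) followed with overlapping intervals. Endothelial-like nuclei stood at 57.9 CPM and immune-like nuclei at 17.5 CPM. Gfra1 spans 220 kb and had 26 regions, 17 of them shared and 11 of these matched in width. No region held any of its annotated starts. The nearest, r1, lay -1.01 kb upstream, and the other 25 were intronic. The predicted gene Gm16277 overlaps the locus. Different parts of the gene were open in different cells. Regions were ranked in Enl-WT among nephron progenitor-like, stroma-like and ureteric epithelium-like nuclei only, and the other classes were left out. Of the 17 shared regions, 9 were highest in nephron progenitor-like nuclei, 7 of them with intervals apart from the next of the ranked classes. The other 8 were highest in ureteric epithelium-like nuclei, 6 of them apart.

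Region r4, 28.4 kb into the gene, was the most restricted of these, with 18.2 CPM in Enl-WT nephron progenitor-like nuclei, 1.58 in stroma-like nuclei and 1.39 in ureteric epithelium-like nuclei. Enl-T1 nephron progenitor-like nuclei held 6.60 CPM there, a log2 ratio of -1.46 (-1.78 to -1.15). Its peak was 948 bases wide in Enl-WT and 946 bases in Enl-T1. The central 300 bases (GRCm38.p6, chr19:58427311-58427610, − strand) are shown because r4 had the largest ratio among width-matched regions of the 6 genes in nephron progenitor-like nuclei.
Gfra1 r4: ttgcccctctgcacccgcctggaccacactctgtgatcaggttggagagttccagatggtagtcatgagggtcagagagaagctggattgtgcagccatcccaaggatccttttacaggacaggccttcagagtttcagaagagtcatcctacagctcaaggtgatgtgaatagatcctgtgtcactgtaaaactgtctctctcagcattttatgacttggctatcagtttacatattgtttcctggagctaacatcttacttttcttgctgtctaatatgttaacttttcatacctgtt
None of the 11 motifs occurred in it, and the share of all shared regions that hold a match in their central 300 bases ran from 1.23% (HNF1) to 18.1% (TEAD).

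Other regions open in nephron progenitor-like nuclei had lower levels in Enl-T1 as well. Region r12 was at 12.4 and 4.84 CPM (-1.36), r13 at 8.57 and 3.70 (-1.21), r5 at 17.5 and 9.08 (-0.94) and r24 at 17.9 and 9.82 CPM (-0.87). The upstream region r1 was at 9.45 and 4.71 CPM (-1.0, -1.40 to -0.61). The most extreme ratio was -2.72 (-3.53 to -1.98) at r15, whose 2 peaks overlapped only in a small part. They were chr19:58358395-58359588 in Enl-WT (1194 bases) and chr19:58359398-58359921 in Enl-T1 (524 bases). This ratio therefore compares mostly different bases, and r15 is among the 11 regions with an interval below 0 counted next. Of the 17 shared regions, 11 had an interval below 0 in this class, 1 above 0 and 5 included 0, where 18.0% of all shared regions with at least 100 counts lay below 0 and 17.6% above. The region above 0 was r22, at 2.21 and 4.29 CPM (0.96, 0.35 to 1.61), which in Enl-WT was open mainly in ureteric epithelium-like nuclei.

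**Figure D2:**
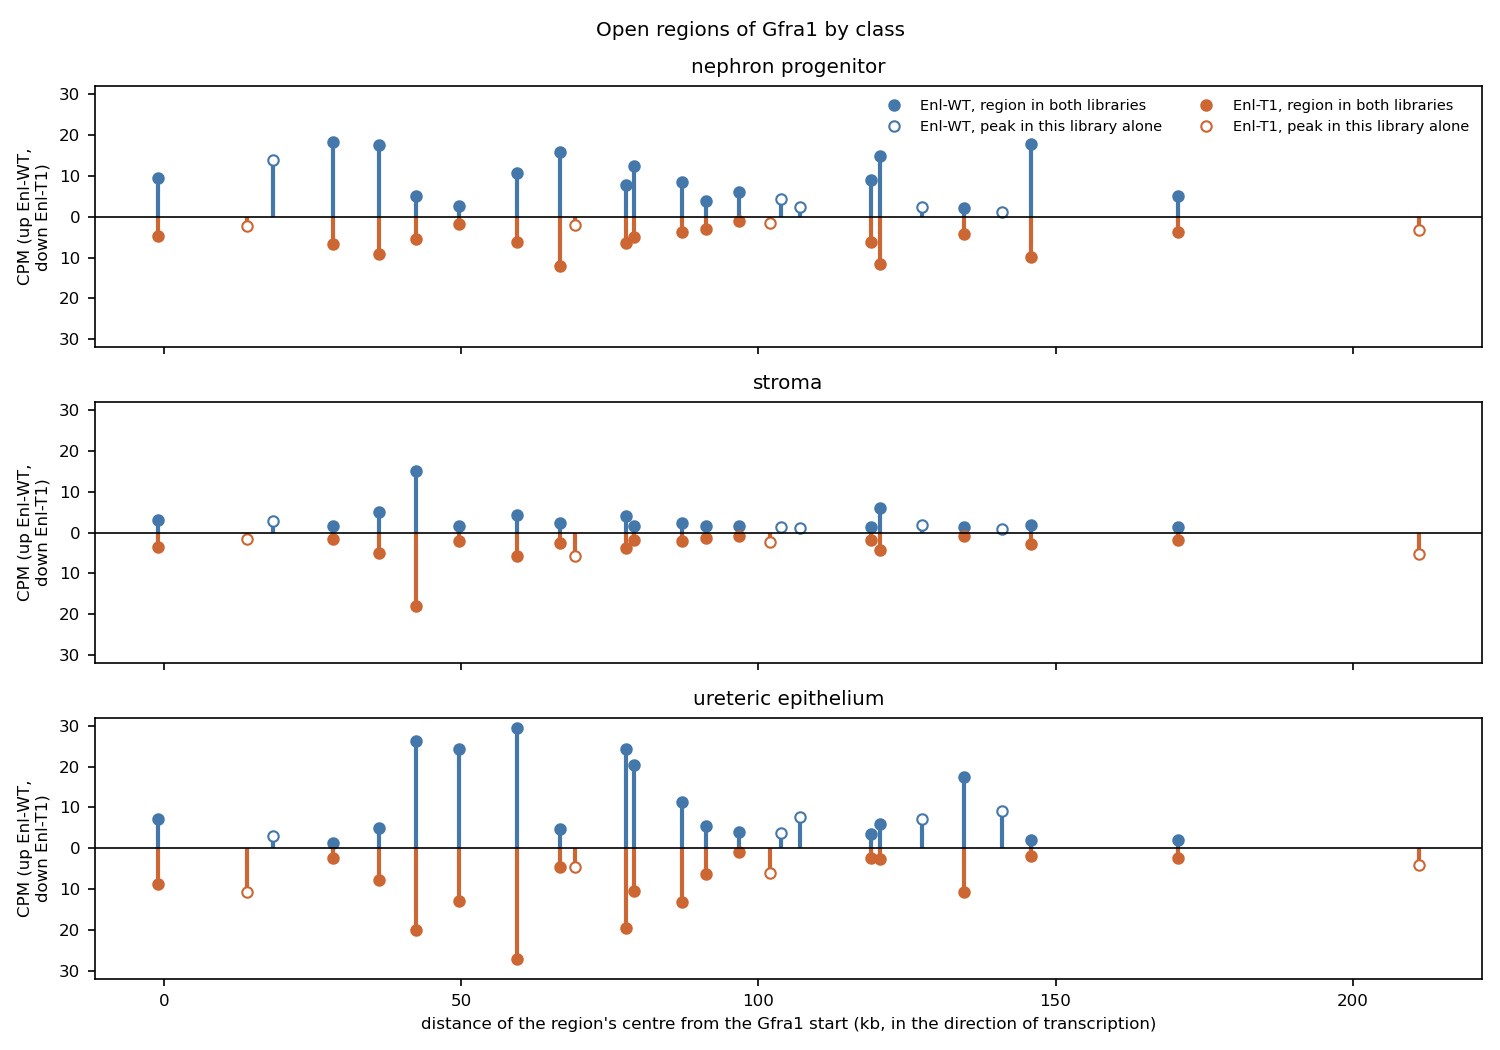
Level of each Gfra1 region (CPM, upward for Enl-WT in blue, downward for Enl-T1 in orange) against the distance of its centre from the gene start (kb), with 1 panel per class, filled points for regions of both libraries and open points for peaks of 1 library. The line at 28.4 kb is tallest in the nephron progenitor panel (18.2 CPM up, 6.60 down). It is short in the stroma (1.58 and 1.61) and ureteric epithelium panels (1.39 and 2.44). Those at 42.4, 49.6 and 59.4 kb are tallest in the ureteric epithelium panel.

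In ureteric epithelium-like nuclei 5 of 12 Gfra1 regions with at least 100 counts had an interval below 0, where 7.27% of all such regions did, and 7 included 0. None lay above 0, where 7.33% of all regions did. Region r12, the only one of the 5 matched in width, was at 20.5 CPM in Enl-WT against 10.4 in Enl-T1 (-0.98, -1.41 to -0.56). The others had wider Enl-WT peaks. They were r7 (24.4 and 12.9 CPM, -0.92, 1323 against 882 bases) and r22 (17.4 and 10.8 CPM, -0.68, 1334 against 825 bases). Regions r6 (26.3 and 20.1 CPM, -0.39, 1189 against 937 bases) and r20 (5.87 and 2.51 CPM, -1.23, 1504 against 779 bases) completed the 5. Region r8, the most open, was at 29.5 and 27.2 CPM (-0.12). The central 300 bases of r12 (GRCm38.p6, chr19:58376664-58376963, − strand) are shown because this width-matched region was lower in Enl-T1 in both nephron progenitor-like and ureteric epithelium-like nuclei.
Gfra1 r12: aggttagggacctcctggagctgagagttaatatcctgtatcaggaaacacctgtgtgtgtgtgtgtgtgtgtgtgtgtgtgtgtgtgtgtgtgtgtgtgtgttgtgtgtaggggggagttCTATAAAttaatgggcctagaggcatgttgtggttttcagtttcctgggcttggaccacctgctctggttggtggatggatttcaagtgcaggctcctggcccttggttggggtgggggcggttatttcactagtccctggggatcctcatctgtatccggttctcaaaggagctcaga
The capitals mark 1 HOX match, held by 15.4% of all shared regions. The promoter of Gfra1 (chr19:58455399-58455648, − strand) is shown because neither library listed a peak there. Its capitals mark 1 TEAD match, held by 12.6% of promoters.
Gfra1 promoter 1: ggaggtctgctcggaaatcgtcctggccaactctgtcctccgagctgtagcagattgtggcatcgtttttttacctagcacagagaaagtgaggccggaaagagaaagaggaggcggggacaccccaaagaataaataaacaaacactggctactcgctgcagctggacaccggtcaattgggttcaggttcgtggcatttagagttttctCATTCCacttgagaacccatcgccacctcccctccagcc

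In stroma-like nuclei Gfra1 was open mainly at r6, which held 15.1 CPM in Enl-WT against 17.9 in Enl-T1 (0.24, 0.01 to 0.47). Of 15 regions there, 3 had an interval above 0, where 15.0% of all such regions did, and 1 below 0, where 12.5% did. Several Gfra1 peaks were listed in 1 library alone. Region r3, 18.3 kb into the gene and in the Enl-WT list alone, held 13.9 CPM (12 to 16.0) in nephron progenitor-like nuclei, 2.77 in stroma-like nuclei and 3.10 in ureteric epithelium-like nuclei. Region r2, 14.1 kb into the gene and in the Enl-T1 list alone, held 10.6 CPM (8.37 to 13.1) in ureteric epithelium-like nuclei and 2.21 in nephron progenitor-like nuclei. Regions r10 and r26 were also in the Enl-T1 list alone. Among nephron progenitor-like, stroma-like and ureteric epithelium-like nuclei, their levels were highest in stroma-like nuclei, at 5.69 CPM (4.69 to 6.84) and 5.28 CPM (4.32 to 6.4).

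The Gfra1 level in the nephron progenitor-like class followed the clusters. Enl-WT nuclei of cluster 2 were at 167 CPM, and the 90 Enl-T1 nuclei that fell into cluster 2 were at 157 CPM (122 to 200). Enl-T1 nuclei of cluster 6 were at 114 CPM, a log2 ratio to Enl-WT cluster 2 of -0.55 (-0.67 to -0.43), and those of cluster 0 at 91.4 CPM, a ratio of -0.87 (-0.97 to -0.77). Region r4 showed the same order, with 18.2 CPM in Enl-WT cluster 2, 11.5 in cluster 6 and 3.68 in cluster 0. Cluster 6 was named from 7 of 8 progenitor markers and cluster 0 from 4 of 8. Over the whole class, summed progenitor markers were at 399 CPM in Enl-WT against 336 in Enl-T1 (7 of 8 lower), and markers of early nephron epithelium at 499 and 603 (6 of 8 higher). Other lists shifted in this class too, so the shift was not particular to these 2. Distal tubule or loop markers were at 374 and 476 CPM (5 of 8 higher), and podocyte markers at 421 and 364 (7 of 8 lower). The part of these shifts in the Gfra1 value was not tested. In the ureteric epithelium the ratio was -0.22 (-0.35 to -0.09) within cluster 4 and -0.35 (-0.64 to -0.05) within cluster 12, and summed tip markers there were at 263 and 231 CPM (4 of 5 lower).

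**Figure D3:**
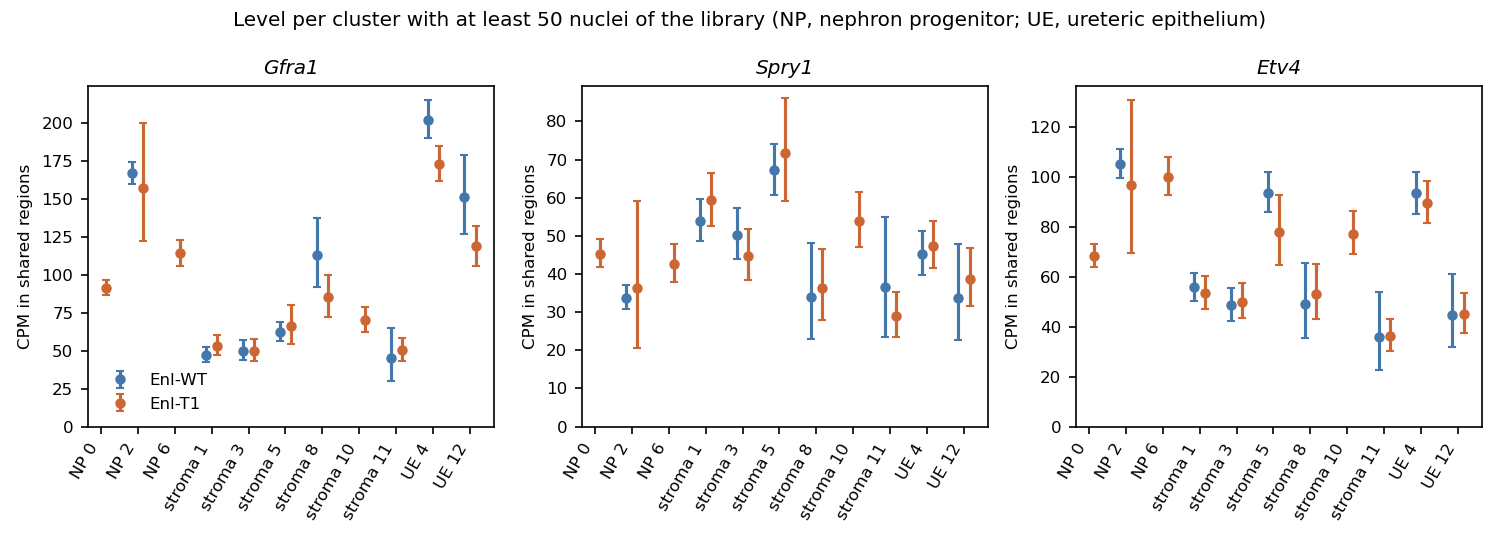
Level of Gfra1, Spry1 and Etv4 (CPM, vertical axes from 0) in each cluster with at least 50 nuclei of a library, Enl-WT in blue and Enl-T1 in orange, with 95% counting intervals. For Gfra1, the Enl-T1 points of NP clusters 0 (91.4) and 6 (114) lie below the Enl-WT point of NP cluster 2 (167).

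Etv4, an ETS transcription factor maintained by Ret signalling (ENSMUSG00000017724.14, chr11:101769742-101785371, − strand), had 2 regions, and each held an annotated start. Its level in nephron progenitor-like nuclei was 105 CPM (99.2 to 110) in Enl-WT against 79.5 CPM (75.6 to 83.5) in Enl-T1, with a log2 ratio of -0.40 (-0.50 to -0.29). Both regions were lower there, r1 at 54.1 and 41.7 CPM (-0.38) and r2 at 50.5 and 37.8 CPM (-0.42). The peak at r1 was wider in Enl-WT (1575 against 1102 bases), whereas r2 was matched (952 and 990 bases). Per kb of peak the gene's ratio was -0.12.

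The lower Etv4 level lay in cluster 0. Enl-T1 nuclei of cluster 6 were at 100 CPM, a ratio to Enl-WT cluster 2 of -0.07 (-0.20 to 0.07), and those of cluster 0 were at 68.5 CPM, a ratio of -0.62 (-0.74 to -0.50). In stroma-like nuclei Etv4 was at 65.0 and 56.6 CPM (-0.20, -0.32 to -0.08) and in ureteric epithelium-like nuclei at 86.3 and 73.6 CPM (-0.23, -0.40 to -0.05). Per kb of peak these 2 ratios turned to 0.07 and 0.04. The width-matched region r2 kept the lower direction, with -0.24 (-0.46 to -0.02) in stroma-like nuclei and -0.16 (-0.42 to 0.11) in ureteric epithelium-like nuclei. Within the ureteric epithelium, Etv4 was more open in cluster 4 (93.4 CPM in Enl-WT, 89.6 in Enl-T1) than in cluster 12 (44.8 and 44.9), and neither cluster differed between the libraries beyond counting error. Cluster 12 took up 136 of 882 ureteric epithelium-like nuclei in Enl-WT but 682 of 1723 in Enl-T1.

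Etv5, the second ETS factor of the pair (ENSMUSG00000013089.15, chr16:22381309-22439719, − strand), had 13 regions, 9 of them shared. Its level was highest in Enl-WT in distal tubule-like nuclei at 192 CPM and ureteric epithelium-like nuclei at 165 CPM (155 to 176), with proximal tubule-like nuclei at 158 (149 to 168) and stroma-like nuclei at 147 (142 to 153) next. Both libraries stood at 121 CPM in nephron progenitor-like nuclei (-0.00, -0.09 to 0.09). The ratio was -0.21 (-0.29 to -0.13) in stroma-like nuclei (147 and 128 CPM), -0.16 (-0.29 to -0.04) in ureteric epithelium-like nuclei (165 and 147 CPM) and -0.27 (-0.51 to -0.05) in endothelial-like nuclei (130 and 107 CPM). The peak at the start, r1, was 1349 bases wide in Enl-WT against 878 in Enl-T1. Per kb of peak the stromal and ureteric ratios turned to 0.09 and 0.13, and the nephron progenitor-like ratio was 0.29. In endothelial-like nuclei the levels per kb were 13.5 CPM in Enl-WT and 13.7 CPM in Enl-T1. Over its regions of matched width the gene kept the lower direction, with a stromal ratio of -0.15 (-0.29 to -0.02) and a ureteric ratio of -0.24 (-0.44 to -0.04), and stood at 0.01 (-0.17 to 0.19) in nephron progenitor-like nuclei. Among these, region r2, 1.25 kb from the start, was at 27.2 and 20.2 CPM in the ureteric class (-0.43, -0.75 to -0.10). This region is intronic in GENCODE but covers another promoter of Etv5 in RefSeq.

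A difference that did not rest on width was found at r4, in an intron 10.7 kb from the start (905 and 900 bases wide). In stroma-like nuclei it was at 16.5 CPM in Enl-WT against 10.3 in Enl-T1 (-0.67, -0.93 to -0.41), the largest matched-region difference of the 6 genes in stroma. In ureteric epithelium-like nuclei, where it was most open among the 3 classes, it was at 35.7 and 32.5 CPM (-0.14, -0.41 to 0.13). Within stromal clusters 3 (10.2 and 10.0 CPM) and 5 (24.5 and 23.9 CPM) it did not differ beyond counting error, and in cluster 1 it was at 13.1 and 9.64 CPM (-0.44, -0.98 to 0.07). In cluster 11 it was at 21.8 CPM in 110 Enl-WT nuclei and 6.03 CPM in 951 Enl-T1 nuclei (-1.86, -2.90 to -0.77), and in cluster 10, nearly all Enl-T1, at 9.90 CPM. Another stromal region, r11, went the other way, at 8.41 and 11.4 CPM (0.44, 0.14 to 0.74). The central 300 bases of r4 (GRCm38.p6, chr16:22428922-22429221, − strand) are shown for this difference.
Etv5 r4: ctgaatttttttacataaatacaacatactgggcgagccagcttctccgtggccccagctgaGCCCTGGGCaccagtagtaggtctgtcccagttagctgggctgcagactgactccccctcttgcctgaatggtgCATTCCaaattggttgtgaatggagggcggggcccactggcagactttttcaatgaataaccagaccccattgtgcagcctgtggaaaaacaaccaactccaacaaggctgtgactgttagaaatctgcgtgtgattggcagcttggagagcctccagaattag
The capitals mark 1 TFAP2 match, held by 12.2% of all shared regions, and 1 TEAD match, held by 18.1%.

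Spry1, the inhibitor that Ret signalling induces (ENSMUSG00000037211.12, chr3:37639947-37644598, + strand), was the 1 gene of the 6 with a higher level in Enl-T1 nephron progenitor-like nuclei beyond counting error. It was at 34.0 CPM (31.0 to 37.2) in Enl-WT against 44.3 CPM (41.4 to 47.3) in Enl-T1, with a log2 ratio of 0.38 (0.22 to 0.55). Clusters 0 (45.3 CPM) and 6 (42.6 CPM) of Enl-T1 both stood above Enl-WT cluster 2 (33.7 CPM). The region at the start, r1, was at 18.2 and 24.5 CPM (0.42, 0.20 to 0.65), and r3, over an exon 2.31 kb downstream, at 3.31 and 5.43 CPM (0.71, 0.20 to 1.25). The width-matched region r2 had a ratio of 0.21 (-0.07 to 0.49), and thinned shares of nuclei were 8.69% (7.46 to 10.1) and 9.93% (9.03 to 10.9), whose intervals overlapped. These measures had the same direction, but the matched region and the share of nuclei did not set the libraries apart. Endothelial-like nuclei had thinned shares of 14.0% and 14.7%, so no background can be read from them for Spry1.

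In stroma-like nuclei Spry1 was at 55.7 and 48.9 CPM (-0.19, -0.31 to -0.06), and in ureteric epithelium-like nuclei at 43.5 and 44.3 CPM (0.03, -0.21 to 0.26). The stromal clusters 1 (53.9 and 59.3 CPM), 3 (50.3 and 44.8) and 5 (67.2 and 71.6) had overlapping intervals between the libraries, and the width-matched region r2 had a stromal ratio of -0.03. Cluster 11, with 951 of the 5466 Enl-T1 stroma-like nuclei and 110 of the 3245 Enl-WT ones, was lower at 36.7 and 29.0 CPM. Region r3 was open in stroma-like and endothelial-like nuclei, at 22.0 and 20.2 CPM in Enl-WT. It was at 3.31 CPM in nephron progenitor-like and 4.08 CPM in ureteric epithelium-like nuclei of that library. Spry1 overlaps the predicted gene Gm42922, and fragments there cannot be assigned to either. Its promoter (GRCm38.p6, chr3:37639697-37639946, + strand) is shown because r1 covers it, and the capitals mark 1 TEAD match.
Spry1 promoter 1: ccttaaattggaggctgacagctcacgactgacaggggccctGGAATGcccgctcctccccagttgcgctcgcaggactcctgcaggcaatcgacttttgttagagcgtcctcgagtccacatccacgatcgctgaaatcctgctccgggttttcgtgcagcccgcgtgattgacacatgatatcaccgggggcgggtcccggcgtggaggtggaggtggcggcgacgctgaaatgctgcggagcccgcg

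**Figure D4:**
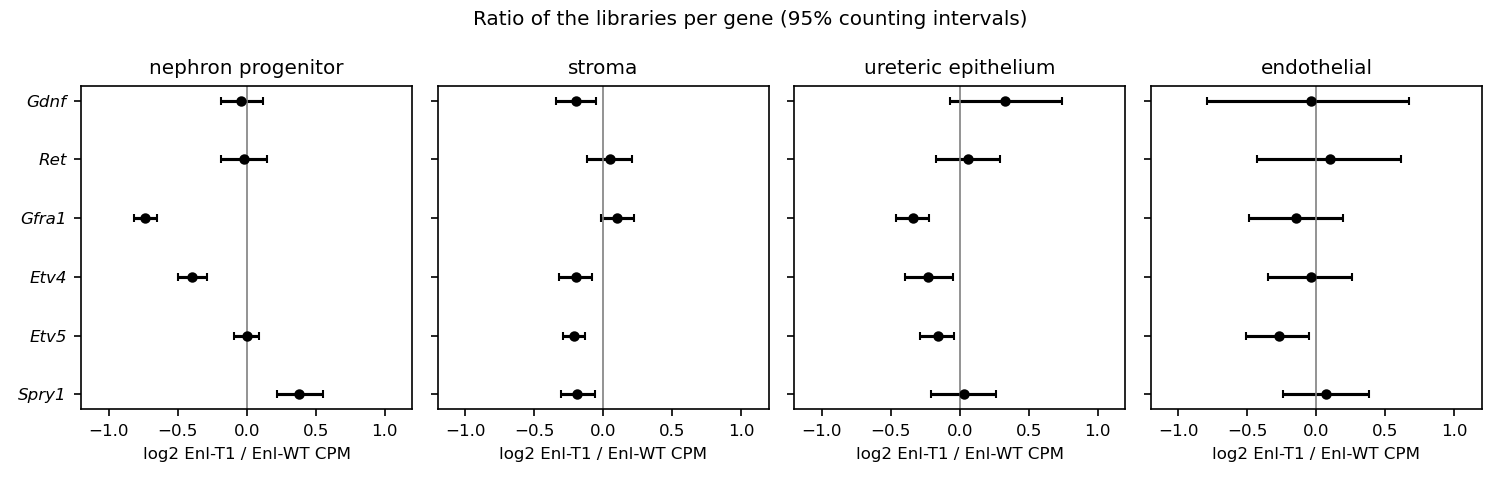
Log2 ratio of Enl-T1 to Enl-WT CPM for each gene (horizontal axis, 0 marked by a line), with 95% counting intervals as bars and 1 library per group. The panels are nephron progenitor-like, stroma-like, ureteric epithelium-like and endothelial-like nuclei. In nephron progenitor-like nuclei Gfra1 (-0.74) and Etv4 (-0.40) lie left of 0 and Spry1 (0.38) right of it, and in ureteric epithelium-like nuclei Ret, Gdnf and Spry1 include 0.

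Levels of different genes can be set side by side only per length. In CPM per kb of peak, Etv4 was the most open of the 6 in Enl-WT nephron progenitor-like nuclei (41.4), followed by Gdnf (13.7), Etv5 (12.6), Spry1 (12.1), Ret (9.69) and Gfra1 (9.47). In Enl-WT ureteric epithelium-like nuclei the values per kb were 34.1 for Etv4, 17.2 for Etv5, 15.5 for Spry1, 12.6 for Ret, 11 for Gfra1 and 4.41 for Gdnf. In the progenitors, Gdnf, Etv5 and Spry1 had overlapping intervals, as did Ret and Gfra1. In the epithelium Gdnf stood last and apart from the others.

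Set against all shared regions with at least 200 counts in a class, the members were lower in Enl-T1 at several Gfra1 regions. In nephron progenitor-like nuclei 33 of the 38 shared regions were counted, of which 5 were at least 2-fold lower in Enl-T1, all of Gfra1 (r1, r4, r12, r13 and r15), where 4.11% of all regions were. Of these 5, r15 was not matched, and its 2 peaks covered mostly different bases. None was at least 2-fold higher, where 4.62% of all regions were. The median ratio of the 33 was -0.36, against 0.00 over all 74963 regions with the 5th and 95th percentiles at -0.93 and 0.96. In stroma-like nuclei 24 regions were counted with none past 2-fold (1.51% of all regions higher, 0.931% lower) and a median of -0.15. In ureteric epithelium-like nuclei 18 were counted with none past 2-fold (0.542% higher, 0.294% lower) and a median of -0.15. These regions belong to 6 genes, 17 of the 38 to Gfra1, and are not independent of each other.

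**Figure D5:**
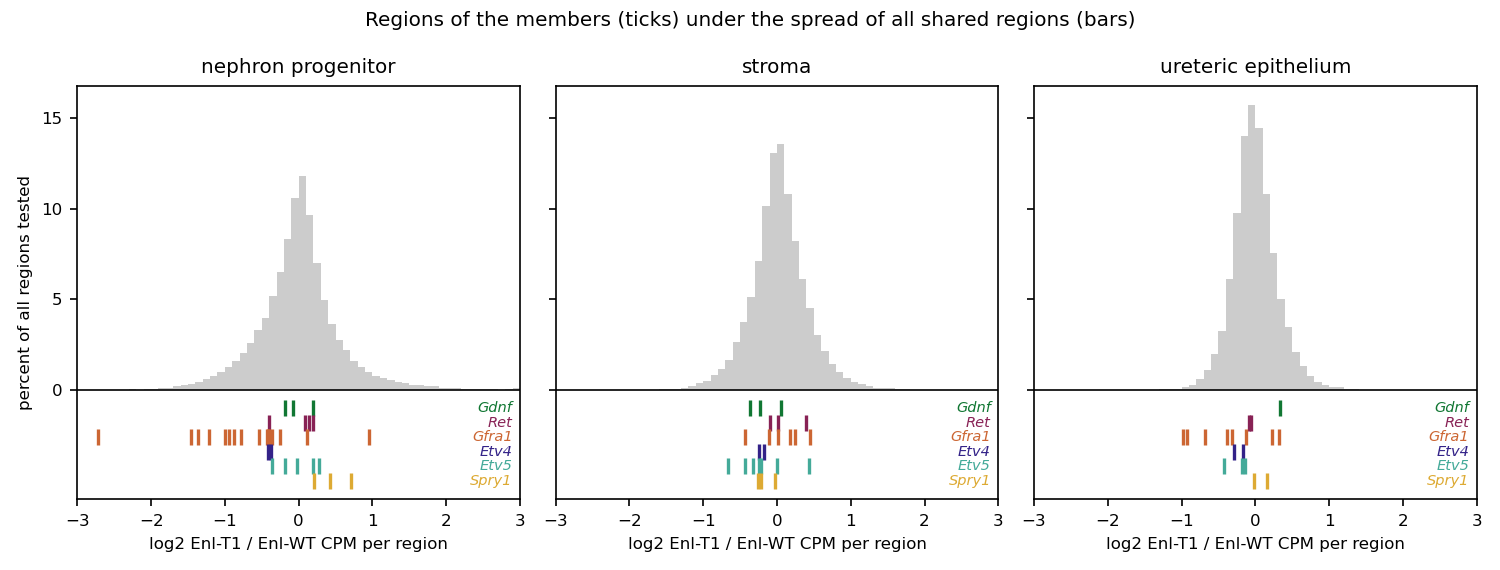
Log2 ratio of Enl-T1 to Enl-WT CPM per region (horizontal axis) for all shared regions with 200 or more counts in that class (bars, percent of regions on the vertical axis) and for regions of the 6 genes (ticks below). In nephron progenitor-like nuclei the ticks reach from -2.72 to 0.96 with a median of -0.36, left of the centre of the bars at 0.00.

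The same was asked of whole genes with at least 200 counts. Of the 6, Gfra1 in nephron progenitor-like nuclei was at least 1.5-fold lower in Enl-T1, as were 2.08% of 16346 protein-coding genes, and none was 1.5-fold higher, as were 1.55%. In stroma-like nuclei none of the 6 passed this fold, where 0.947% of all genes were higher and 0.660% lower. In ureteric epithelium-like nuclei none passed it either, where 0.832% were higher and 0.553% lower. The median gene ratios of the 6 were -0.03, -0.19 and -0.07 in these classes, against 0.01, -0.00 and -0.02 over all genes.

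Another 61 genes of the pathway were listed by role: other ligands and co-receptors, adaptors and kinases, inhibitors, targets in the tip, regulators of Gdnf or Ret, and parallel signals. Of 59 with enough counts in nephron progenitor-like nuclei 1 was at least 1.5-fold higher in Enl-T1 and none lower. Of all genes there, 1.55% were higher and 2.08% lower. The gene of the list was Emx2, a homeobox gene needed for the ureteric bud, at 14.9 and 24.3 CPM (0.70, 0.47 to 0.95). In ureteric epithelium-like nuclei, where it was most open of the 3 classes, Emx2 was at 89.5 and 77.8 CPM (-0.20, -0.37 to -0.03). Of 59 in stroma-like nuclei 1 was higher and none lower, where 0.947% of all genes were higher and 0.660% lower. Of 57 in ureteric epithelium-like nuclei 1 was higher and none lower, where 0.832% of all genes were higher and 0.553% lower. These counts do not set the list apart from all genes. The higher gene in both classes was Grem1, a BMP antagonist that permits bud outgrowth. Grem1 stood at 6.78 and 10.6 CPM in stroma-like nuclei (0.65, 0.33 to 0.98) and at 9.79 and 19.3 CPM in ureteric epithelium-like nuclei (0.98, 0.53 to 1.44). The medians of the list were 0.03, 0.05 and -0.04 in the 3 classes. For genes of this list the ratios were not recomputed over regions of matched width or per kb of peak.

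Other genes of that list, named here for their known ties to Gdnf and Ret, were short of the fold. Itga8, the integrin on the mesenchyme that maintains Gdnf, was at 63.6 and 45.2 CPM in nephron progenitor-like nuclei (-0.49) but at 112 and 132 CPM in stroma-like nuclei (0.24, 0.16 to 0.33), and Npnt, its ligand, at 17.4 and 25.8 CPM in stroma-like nuclei (0.57). Slit2, which limits where Gdnf is made, was at 121 and 151 CPM in nephron progenitor-like nuclei (0.32). Wnt11, a tip target that feeds back on Gdnf, was at 62.3 and 53.5 CPM in ureteric epithelium-like nuclei (-0.22). Dusp6, an ERK phosphatase, had ratios of -0.13, -0.23 and -0.27 in nephron progenitor-like, stroma-like and ureteric epithelium-like nuclei. Stromal and ureteric ratios of similar size for Etv4 and Etv5 changed sign per kb of peak. The part of peak width in the ratios of these listed genes was not tested.

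The genes whose level ran most like a member's over 17 clusters were found by Pearson's r of log2(CPM + 1), as a description without a test, since clusters share libraries and depth. For Gfra1 they were Igsf9b, Kank1 and Osbp2 (r = 0.95 each). For Gdnf they were Lsamp (0.95), Asic2 (0.93) and Aldh1a2 (0.92), and for Ret Lemd1 (0.85), Chrdl2 (0.83) and Cpa6 (0.83). For Etv4 they were Tle6 (0.84), Lpl (0.81) and Atp4a (0.79), for Etv5 4921536K21Rik (0.79), Dusp18 (0.79) and Rbbp9 (0.78), and for Spry1 Cbx2 (0.80), Mbnl3 (0.80) and Spc24 (0.79). Between members the highest value was 0.69, for Ret and Gfra1.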

How the data were processed

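Per the labels and the study's methods, the authors prepared nuclei from dissociated E15.5 kidneys with the Chromium Single Cell ATAC kit, aligned the reads to mm10 with Cell Ranger ATAC 2.1.0, called peaks in each library, and deposited raw counts per peak and barcode with the peak and barcode lists. These deposited counts carry no normalisation. Even values made up 91.1% (Enl-WT) and 88.0% (Enl-T1) of the entries, so 2 counts were taken as 1 fragment. Barcodes with 2000 to 100000 counts were kept. The study's filters on fragments in peaks, blacklisted regions and signal at starts need fragments and were not applied, and doublets were not removed except as an alternative.

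Peaks of both libraries were joined where they overlapped, which gave 110706 shared regions holding 88.8% of Enl-WT and 94.9% of Enl-T1 counts. Components 2 to 30 of latent semantic indexing of these regions, with 15 neighbours and Leiden resolution 1, gave the clusters, without integration of the libraries. A cluster was named when its marker score was at least 0.4, at least 3 markers were raised and the lead over the next lineage was at least 0.1. This scoring rule and the floor of 50 CPM for leading genes were taken up with the data known, and classes rebuilt in this way can differ from the study's own annotation. Cluster 8 of the stroma was shallow (0.379 and 0.438 of its libraries' median counts). Its name was weak, with a stroma score of 0.97 against 0.82 for the next lineage, and a lead of 0.2 left it unnamed. It is not among the stromal clusters whose values are given singly above. The podocyte-like class was cluster 14, with 691 Enl-WT nuclei. It had 7 of 8 podocyte markers raised, but none was among its leading genes. At resolution 0.5 the cluster named podocyte held 340 Enl-WT nuclei, and at resolution 2 it held 337. At resolution 2 another cluster, of 365 Enl-WT nuclei, was named early nephron epithelium. The podocyte-like class may therefore hold early nephron nuclei as well.

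CPM was scaled to the counts of each class in shared regions. Intervals are exact Poisson (levels), exact conditional binomial (ratios) and Clopper-Pearson (shares of nuclei), at 95%, over fragments. They cover counting error only, and since each group is 1 library, p-values were not computed and the study's test over nuclei was not used. Shares used 9064 Enl-WT and 11071 Enl-T1 nuclei thinned to 2500 fragments, and 408 and 1564 shallower nuclei were left out. Regions were called matched when their peaks overlapped by at least 80% of each. All 6 members are named, regions of theirs with at least 100 counts in a class may be named, and likeness was taken among genes with at least 20 CPM in a cluster and more than 1 Mb away. The members, gene lists, markers and tests were chosen with earlier results of these data known. Sequences were read from RefSeq (GRCm38.p6), and 2000 of 2000 promoters compared with the genome were equal to it. Scripts were tested on simulated counts and ran in Python 3.11.15 with numpy 2.4.6, scipy 1.17.1, pandas 2.3.3, scikit-learn 1.9.0 and leidenalg 0.10.2. Alternatives changed the barcode minimum, regions, window, scaling, measure, clustering, naming, integration and doublets.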

Additional observations from a re-analysis of the deposited data

Results flagged for a closer look

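A set of 7 results lay on opposite sides of 0 in a pair of classes, each with an interval apart from 0, and 4 peaks stood in the Enl-T1 list alone. None of these differences between classes was tested, and the share of all regions or genes that meet this rule is not known. Of all regions with at least 100 counts, 17.6% lay above 0 and 18.0% below in nephron progenitor-like nuclei. These shares were 15.0% and 12.5% in stroma-like nuclei and 7.33% and 7.27% in ureteric epithelium-like nuclei. The 7 results are not independent, since Spry1 is counted with its own regions r1 and r3 and the others are all Gfra1 regions. Spry1 had a log2 ratio of Enl-T1 to Enl-WT of 0.38 in nephron progenitor-like nuclei and -0.19 in stroma-like nuclei. Its region at the start (r1) had 0.42 and -0.21, and its exonic region r3 had 0.71 and -0.26 in the same classes. Within Gfra1, r8 had -0.78 in nephron progenitor-like nuclei and 0.45 in stroma-like nuclei, and r24 had -0.87 and 0.66. Region r22 of Gfra1 had 0.96 in nephron progenitor-like nuclei and -0.68 in ureteric epithelium-like nuclei, and r6 had 0.24 in stroma-like nuclei and -0.39 in ureteric epithelium-like nuclei. The compared classes hold different clusters in each library, and the part of this in the values was not tested.

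The Enl-T1 peaks without an overlapping Enl-WT peak were the Ret region upstream of its start (r1, 210 counts in ureteric epithelium-like nuclei), Gfra1 r2 (160 counts in ureteric epithelium-like nuclei), Gfra1 r10 (226 counts in stroma-like nuclei) and Gfra1 r26 (210 counts in stroma-like nuclei). No counts of Enl-WT are listed in these places, so they could not be compared with that library.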

How the results depend on the processing

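All 18 gene ratios (6 genes in 3 classes) stayed within their intervals with at least 5000 counts per barcode, median-of-ratios scaling, resolution 0.5 or 2, components 2 to 15, a naming lead of 0.2, mutual nearest neighbours or doublets removed, and, chosen after seeing the data, without barcodes of both libraries. The 100 region ratios did so under each of their 3 alternatives. Values outside the interval follow, as log2 ratios in nephron progenitor-like (NP), stroma-like and ureteric epithelium-like (UE) nuclei. With every row of each peak list, Gdnf was -0.34 in NP, -0.54 in stroma and -0.14 in UE, Ret 0.52 in UE, Gfra1 0.30 in stroma and Etv5 -0.12 in stroma. With the region at a start, Gdnf was -0.19 in NP and -0.37 in stroma, and Ret 0.20 in NP (Gfra1 has no such region). With matched regions, Gfra1 was -0.86 in NP and -0.12 in UE, and Spry1 0.21 in NP and -0.03 in stroma. With 10 kb on each side, Gdnf was -0.41 in NP, Gfra1 -0.63 in NP and 0.30 in stroma, and Spry1 0.15 in NP. As shares of thinned nuclei, Gdnf was 0.14 in NP and 0.77 in UE, Ret -0.22 in UE, Gfra1 -0.55 in NP, and Spry1 0.19 in NP and -0.06 in stroma. Per kb of peak, an alternative chosen after seeing the data, Gfra1 was -0.47 in NP, 0.36 in stroma and -0.08 in UE, Etv4 -0.12 in NP, 0.07 in stroma and 0.04 in UE, and Etv5 0.29 in NP, 0.09 in stroma and 0.13 in UE. The causes were not tested. Without thinning, 14 of 18 ratios of shares moved, and ranking the genes per kb moved 14 of 18 ranks. No paired analysis was possible because each group is 1 library, and no replicate could be left out. The spread between embryos is thus unknown.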
